A study of Mus musculus with 2 samples.

Results

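The genes described here are the semaphorins, a family of secreted and membrane-bound guidance proteins, and their receptors, the plexins and neuropilins, in the newborn mouse cerebellum. They were taken by symbol, with no measured value used, and comprised 31 of the 32285 genes listed: 20 semaphorins, 9 plexins and the 2 neuropilins. The tissue was lobules III-IV of the cerebellum at postnatal day 1 (P1), dissociated to single cells. A single library came from Cxcr4+/+ mice (control) and a single library from Cxcr4+/1013 mice (mutant), both labelled with the strain B6.129S2-Cxcr4tm1.1Bala. The 1013 allele shortens the intracellular tail of the chemokine receptor CXCR4, so that the mutant mice carried 1 wild-type and 1 shortened copy in every cell. The number of animals in each library was not given in the sources used here. With 1 library for each genotype no difference between genotypes could be tested, and every interval printed is a 95% interval that covers counting error only.

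After filtering, 8353 control and 8194 mutant cell barcodes were kept, with medians of 12101 and 13557.5 unique molecular identifiers (UMIs), and 18 kept barcodes occurred in both libraries. Cells were assigned to classes by fixed marker lists, which hold no semaphorin, plexin or neuropilin. Each class is meant as "-like": 955 control and 1051 mutant granule cell progenitors, 1498 and 1760 granule neurons, 281 and 399 unipolar brush cells, 628 and 555 Purkinje cells, 1157 and 1436 GABAergic interneurons, 349 and 339 glutamatergic neurons with Lhx9 and Meis2, 960 and 560 astroglia, and 158 and 164 cells of the oligodendrocyte lineage. Ependymal cells numbered 119 and 87, microglia or macrophages 61 and 74, fibroblasts 203 and 39, and endothelial cells 74 and 37. The Lhx9 and Meis2 neurons nearly lacked Tbr1, a marker of cerebellar nuclear neurons on their list, with 7 control and 2 mutant UMIs. They are therefore called by their genes. Of transcription factors outside that list, they held 5486 and 6390 UMIs of Tcf7l2, 384 and 528 of Shox2, and 160 and 135 of Otx2. Whether all of these cells were cerebellar neurons was not tested. No class was assigned to 1697 control and 1443 mutant cells. Levels are UMIs of a gene divided by all UMIs of the class, in CPM, the usual depth-scaled unit. Because tags were read from the 3′ ends of transcripts, levels are compared between classes or libraries for the same gene, and not between genes. Cxcr4 itself stood at 27.1 CPM in the control and 24.1 CPM in the mutant library over all kept cells, and at 64.6 and 64.2 CPM in granule cell progenitors. These tags do not read the truncation and so do not check the genotype.

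Class 3 semaphorins are secreted and act mainly through a neuropilin, which binds the ligand, and a plexin of the A group, which signals. Class 4 to 7 semaphorins are held at the membrane and bind plexins directly, and the plexin's cytoplasmic part acts on small GTPases that control the cytoskeleton and adhesion. In the cerebellum the family is best known for the exchange between Sema6a and Plxna2 in the inward migration of granule neurons and for Plxnb2 in dividing granule cell progenitors.

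Sema3a, the repulsive ligand of Nrp1, was concentrated in Purkinje cells. Its level there was 1141 CPM (1126 to 1157) in the control and 1163 CPM (1147 to 1179) in the mutant library. Levels were ranked over 10 classes, those of 50 or more cells in both libraries, and the second of them, unipolar brush cells, held 57.6 and 49.5 CPM, so that the Purkinje level was 19.8 and 23.5 times as high. Fibroblasts, with fewer cells, held 138 and 200.2 CPM. After thinning to 2000 UMIs per cell, which left out shallower cells (572 of 628 control and 508 of 555 mutant Purkinje cells entered), 76.1% of control and 78.6% of mutant Purkinje cells had a Sema3a UMI (85.5% and 90.3% without thinning, at median depths of 33975 and 35926 UMIs). The thinned shares in the oligodendrocyte lineage were 2.59% and 2.99%, against 13.3% and 17.7% without thinning at 13437.5 and 14947 UMIs. The lists of Purkinje markers summed to 213 and 243 CPM in granule cell progenitors, where Sema3a stood at 39.8 and 42.1 CPM. The part that free Purkinje RNA plays in such low levels was not tested. Sema3a lies at chr5:13125414-13602565 (GRCm38, GENCODE M21).

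The other class 3 ligands were found in other classes, and several were low everywhere. Sema3f, which acts through Nrp2, was highest in the Lhx9 and Meis2 neurons at 29.4 and 37.9 CPM, 5.23 and 6.07 times the level in Purkinje cells, the class after them in both libraries. Sema3d was highest in the oligodendrocyte lineage at 58.9 and 64.9 CPM, followed by granule neurons at 22.9 and 24.9 CPM. Sema3e, the ligand that binds Plxnd1 without a neuropilin, was highest among the 10 classes in ependymal cells at 29.6 and 23.6 CPM, and so was Sema3c at 13.7 and 15.2 CPM. Sema3b and Sema3g did not reach 50 UMIs in total in any of the 8 classes compared between genotypes. The highest Sema3g levels were the 5.69 and 5.83 CPM of endothelial cells, from 13 and 6 UMIs.

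The 2 neuropilins were highest outside the neural lineages. Nrp1 stood at 231 CPM (191 to 277) in control and 226 CPM (192 to 265) in mutant microglia or macrophages, at 116 and 177 CPM in endothelial cells, and at 100.03 and 125 CPM in the Lhx9 and Meis2 neurons. Granule neurons held 5.41 and 4.79 CPM of Nrp1 and astroglia 2.85 and 3.54 CPM. Nrp2 was highest in endothelial cells, at 148 and 93.3 CPM, and stood at 81.7 and 73.9 CPM in microglia or macrophages. Among neurons it was highest in unipolar brush cells at 54.3 and 65.4 CPM, and it was lowest in granule cell progenitors at 1.85 and 2.36 CPM. The classes with the most Sema3a and the most Nrp1 thus differed, and in Purkinje cells Nrp1 held 7.77 and 5.31 CPM.

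**Figure D1:**
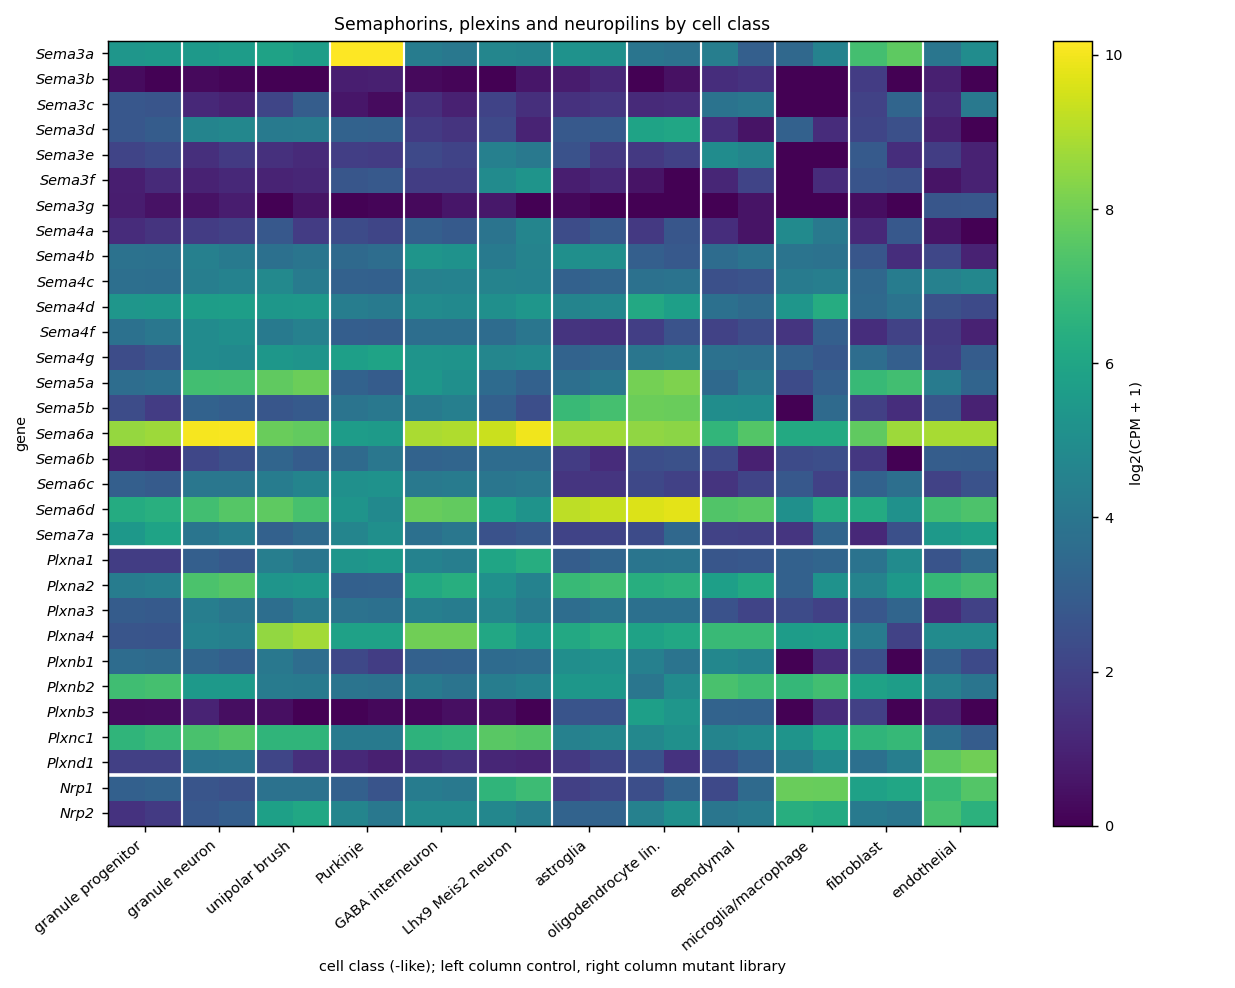
Level of each of the 31 genes (rows) in 12 cell classes, as log2(CPM + 1) in the colour scale, with the control library in the left and the mutant library in the right column of each class. Sema3a stands out in Purkinje cells and Plxnd1 in endothelial cells, and the paired columns look alike for most genes.

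Of the plexins of the A group, the signalling partners of neuropilins and receptors of class 6 semaphorins, Plxna2 and Plxna4 had separate patterns. Plxna2 (chr1:194618218-194816869) stood at 156 CPM in control and 179 CPM in mutant granule neurons and at 116 and 133 CPM in astroglia, whereas Purkinje cells held 7.77 and 8.01 CPM. Plxna4 (chr6:32144268-32588192) was highest in unipolar brush cells at 374 CPM (353 to 397) and 434 CPM (415 to 454), then in GABAergic interneurons at 254 and 252 CPM. Plxna1 was highest in the Lhx9 and Meis2 neurons at 63.0 and 79.7 CPM and then in Purkinje cells at 39.2 and 42.0 CPM. Plxna3, the X-linked member of the group, did not exceed 24.2 CPM in any of the 10 classes, and its highest level was in the Lhx9 and Meis2 neurons of the control and in the GABAergic interneurons of the mutant library.

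The remaining plexins were each highest in a different class or classes. Plxnb2 (chr15:89155549-89180788), a receptor of class 4 semaphorins, stood at 132 CPM (126 to 137) and 145 CPM (139 to 150) in granule cell progenitors and at 151 and 129.9 CPM in ependymal cells, so that the order of these 2 classes differed between libraries. Microglia or macrophages held 110 and 136 CPM of Plxnb2, and the few mural cells of the vessels 118 and 113 CPM. Plxnb1, a receptor of Sema4d, was highest in astroglia at 31.8 and 34.8 CPM. Plxnb3 (chrX:73757090-73772514), a receptor of Sema5a, was highest in the oligodendrocyte lineage at 52.2 and 39.9 CPM, 6.25 and 4.79 times its level in ependymal cells. Plxnc1, the receptor of Sema7a, was highest in the Lhx9 and Meis2 neurons at 188 and 176 CPM, with granule neurons next at 153 and 174 CPM. Plxnd1 stood at 200 CPM (182 to 219) and 252 CPM (222 to 284) in endothelial cells, where it is known as a receptor of vessel guidance, and at 14.8 and 15.6 CPM in granule neurons.

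**Figure D2:**
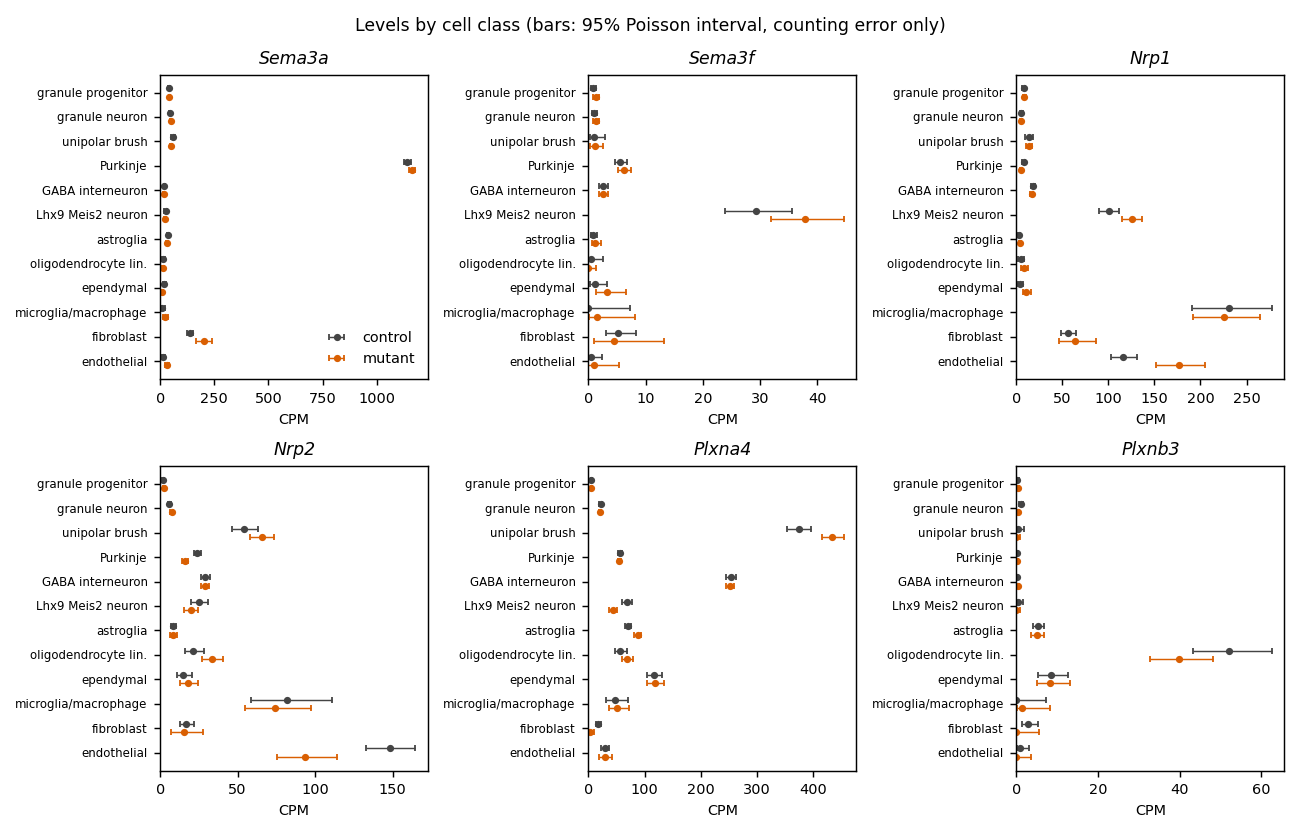
CPM (x axis, linear) of Sema3a, Sema3f, Nrp1, Nrp2, Plxna4 and Plxnb3 by cell class (y axis), with control in grey and mutant in orange; bars are 95% Poisson intervals for counting error. Sema3a is at 1141 and 1163 CPM in Purkinje cells, and Plxna4 is highest in unipolar brush cells in both libraries.

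Among the membrane-bound semaphorins, class 6 and class 5 members marked neuronal and glial classes. Sema6a, a ligand of Plxna2 and Plxna4, was highest in granule neurons at 1049.8 CPM (1034 to 1066) and 1086 CPM (1072 to 1099) among the 10 classes, and lowest in Purkinje cells at 48.5 and 45.8 CPM. The few neurons with Gata3, Tal1 and Sox14 (27 and 30 cells) held more, 1577 and 1553 CPM. Sema6d (chr2:124089969-124667770), a ligand of Plxna1, was highest in the oligodendrocyte lineage at 807 and 859.8 CPM, with astroglia next at 578 and 636 CPM. Sema5a and Sema5b, which carry thrombospondin repeats, were highest in the oligodendrocyte lineage as well. Sema5a stood there at 262 and 300.02 CPM and in unipolar brush cells at 206 and 234 CPM. Sema5b stood there at 238 and 234 CPM, and at 119 and 142 CPM in astroglia, a class that held 12.3 and 14.9 CPM of Sema5a. Sema6c was highest in Purkinje cells at 33.7 and 35.5 CPM, and Sema6b was at most 15.3 CPM in any of the 10 classes.

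Class 4 semaphorins were more evenly spread. Sema4g was highest in Purkinje cells at 53.0 and 58.2 CPM, and Sema4f in granule neurons at 29.2 and 32.4 CPM. For Sema4a, Sema4c and Sema4d the highest of the 10 classes was not shared by the libraries. Sema4d, the ligand of Plxnb1, stood at 70.5 CPM in the control oligodendrocyte lineage and 78.3 CPM in mutant microglia or macrophages, the latter from 53 UMIs. Sema4b stood at 38.7 and 35.4 CPM in GABAergic interneurons and at 32.3 and 32.1 CPM in astroglia. Sema4a reached 27.9 CPM in control microglia or macrophages (14 UMIs), and Sema4c 26.6 CPM in control unipolar brush cells, while the few mural cells of the vessels held 63.5 and 67.8 CPM of Sema4c from 28 and 15 UMIs. Sema7a (chr9:57940112-57962865), which is anchored by a lipid, was highest among the 10 classes in granule cell progenitors at 42.2 and 59.3 CPM, with Purkinje cells at 23.9 and 32.3 CPM, and endothelial cells, outside the 10 classes, stood at 42.9 and 52.5 CPM. In all, 24 of the 31 genes had the same highest class in both libraries over 10 classes, and 22 did over 14 classes that included those with at least 25 cells. The share of all genes with the same highest class is not given here.

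Within the granule lineage the level of most of these genes differed between progenitors and neurons. Of the 31 genes, 27 had enough UMIs to be compared, and 13 were at least 2-fold higher in granule neurons than in granule cell progenitors in both libraries, a size that 15.8% of all genes compared reached. A level at least 2-fold lower in both libraries was seen for 3 genes, against 13.2% of all genes. Sema5a stood at 11.6 and 12.5 CPM in progenitors and at 136 and 139 CPM in neurons, 11.8 (10.1 to 13.7) and 11.2 (9.79 to 12.8) times as high. Plxna2 was 8.499 and 8.90 times as high, from 18.4 and 20.2 CPM in progenitors, and its ligand Sema6a 2.80 and 2.64 times, from 375 and 411 CPM. Sema4g was 7.10 and 5.35 times as high and Plxnd1 5.32 and 5.53 times. The other genes that were higher were Plxna4, Sema3d, Nrp2, Plxna1, Plxna3, Sema4f, Sema6b and Sema6c, with ratios from 2.02 to 8.65. The lower genes were Plxnb2, at 0.342 and 0.303 times the progenitor level, Sema7a at 0.346 and 0.317 times, and Sema3c at 0.212 and 0.174 times. Plxna4 and Plxna2, both receptors of Sema6a, were thus higher with Sema6a itself, and Plxnb2 was lower. Plxna4 stayed low in granule neurons, at 21.8 and 20.3 CPM, against 254 and 252 CPM in GABAergic interneurons. The 6 markers of GABAergic interneurons summed to 19.4 and 29.2 CPM in progenitors and to 84.4 and 78.0 CPM in granule neurons. Their part in the Plxna4 ratio was not tested.

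The granule classes were divided further into dividing progenitors (768 and 853 cells), other progenitors (187 and 198), neurons with Cntn2 or Nhlh1, the earlier granule neuron genes (960 and 1298), and later neurons without them (538 and 462). The step from dividing progenitors to neurons with Cntn2 or Nhlh1 held 12 of 26 genes at least 2-fold higher in both libraries (14.6% of all genes compared) and 3 lower in both (12.4%). Between other progenitors and neurons with Cntn2 or Nhlh1, 10 of 23 genes were higher (12.2%) and Sema7a was lower (9.01%), whereas none of 21 genes differed by this size between the 2 kinds of progenitor (0.414% higher and 2.53% lower). Only Plxna4 and Plxnd1, of 24 genes compared, were at least 2-fold higher again in later neurons in both libraries, a size reached by 1.87% of all genes. None was 2-fold lower in both (1.8%). In the mutant library alone Plxna1 was 2.56 times as high (1.61 in the control). Plxnb1, Plxnb2 and Sema3d were at 0.317, 0.392 and 0.477 there (0.708, 0.540 and 0.535 in the control). Plxna4 stood at 16.7 and 15.5 CPM in the earlier and 35.8 and 38.9 CPM in the later neurons, and Plxnd1 at 10.7 and 11.2 CPM and then 26.1 and 32.6 CPM. Sema6a had its highest level in the earlier neurons, at 1121 and 1149 CPM, and stood at 852 and 843 CPM in the later ones. Later neurons were shallower, with median depths of 7868 and 10305 UMIs against 11826.5 and 13272. Among GABAergic interneurons, Sema5b was 2.06 and 2.18 times as high in cells with a UMI of Lhx5 as in cells without, a size that 1.62% of all genes reached, and none of the 24 genes compared was 2-fold lower (0.0166%).

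**Figure D3:**
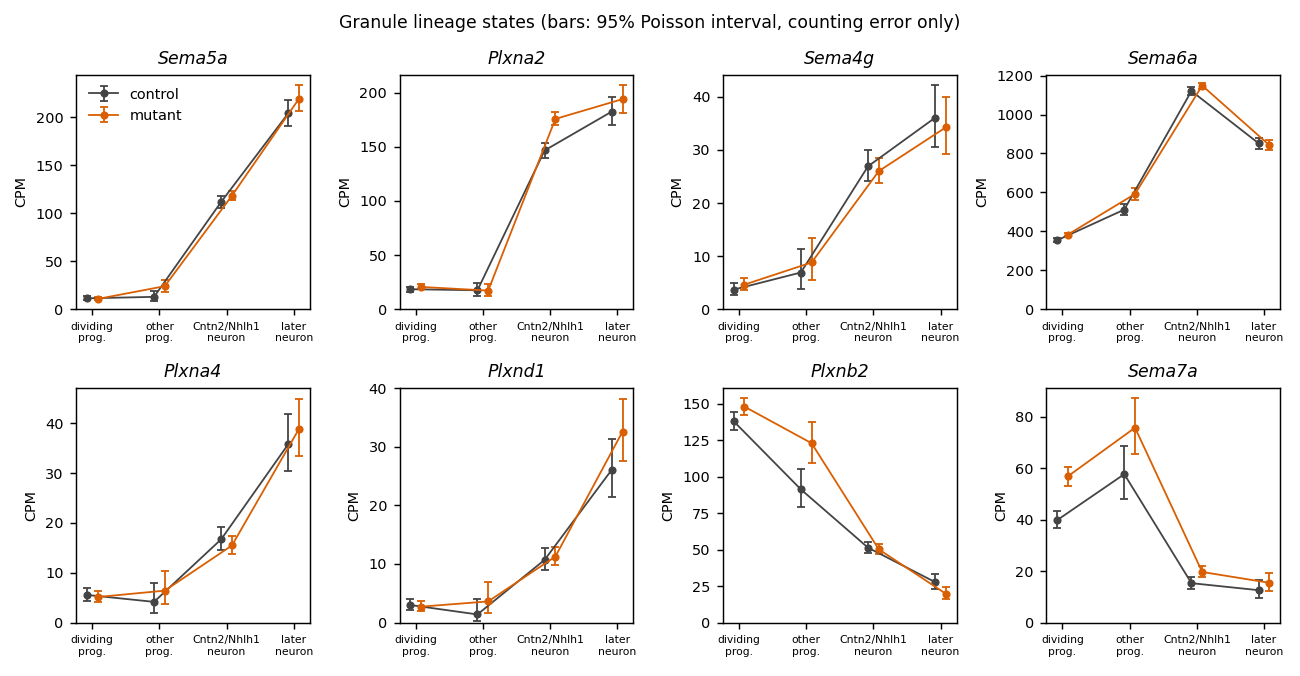
CPM (y axis, from 0) of 8 genes in 4 states of the granule lineage (x axis), with control in grey and mutant in orange; bars are 95% Poisson intervals, and lines only join the states. Sema5a and Plxna2 are higher in neurons, Plxnb2 and Sema7a in progenitors, and Plxna4 and Plxnd1 are highest in the later neurons in both libraries.

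The starts of these genes were examined for the E-box CAGNTG, searched on both strands (the reverse reads CANCTG), the letters bound by basic helix-loop-helix factors such as Atoh1 and Neurod1, which mark the progenitors and the neurons. The windows were the 250 bases before each annotated start in RefSeq (GRCm38.p6), and 26 of the 31 genes had at least 1 such start in the table. The E-box was found in 44.8% of all 32851 windows and in 43.2% of the 37 windows of these genes. Of the 13 genes higher in granule neurons, 10 had a window and 4 of these held an E-box. The sequences that follow are printed to show where the letters fall. They are those of the genes that differed between granule neurons and progenitors and had a single start in the table. Their windows overlapped no annotated exon, and a stretch of bases just after the start occurred in a GENCODE transcript of the gene. E-boxes are in capitals and each window is written 5′ to 3′ on the strand of its gene. Plxna3 (chrX:74328816-74329065, plus strand) and Plxnd1 (chr6:115995006-115995255, minus strand), both higher in neurons, had none. Sema4f (chr6:82939770-82940019, minus strand), higher in neurons, had 3, and Sema7a (chr9:57939862-57940111, plus strand), lower in neurons, had 1.
Plxna3: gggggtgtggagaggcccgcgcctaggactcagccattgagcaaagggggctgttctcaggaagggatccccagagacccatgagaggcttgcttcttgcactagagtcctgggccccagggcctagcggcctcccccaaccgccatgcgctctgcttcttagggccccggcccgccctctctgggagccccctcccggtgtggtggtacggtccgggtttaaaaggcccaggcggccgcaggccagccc
Plxnd1: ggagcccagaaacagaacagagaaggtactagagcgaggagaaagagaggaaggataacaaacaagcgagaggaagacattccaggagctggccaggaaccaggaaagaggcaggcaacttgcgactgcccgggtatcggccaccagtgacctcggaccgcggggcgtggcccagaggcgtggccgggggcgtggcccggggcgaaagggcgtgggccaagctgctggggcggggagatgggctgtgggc
Sema4f: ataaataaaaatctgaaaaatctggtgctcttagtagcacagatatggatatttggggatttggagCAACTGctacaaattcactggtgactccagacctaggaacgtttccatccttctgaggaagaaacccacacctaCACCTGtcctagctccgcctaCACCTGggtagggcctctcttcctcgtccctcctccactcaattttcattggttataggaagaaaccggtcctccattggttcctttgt
Sema7a: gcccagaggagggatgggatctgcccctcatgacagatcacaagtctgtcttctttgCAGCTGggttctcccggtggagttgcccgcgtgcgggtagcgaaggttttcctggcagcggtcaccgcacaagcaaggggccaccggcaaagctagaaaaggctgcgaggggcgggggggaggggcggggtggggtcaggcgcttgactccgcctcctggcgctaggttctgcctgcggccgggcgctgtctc
The letters were thus present in a gene that was higher and a gene that was lower in neurons, and absent from both plexin windows. A match in such a window does not show that a factor binds there.

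The comparison between the Cxcr4+/1013 and the Cxcr4+/+ library was made in 8 classes, each of 100 or more cells per library, and a gene entered where the class held 50 or more of its UMIs in total. It covered 192 pairs of a gene and a class, from 29 of the 31 genes. In 5 pairs (2.60%) the gene was at least 1.5-fold higher in the mutant library, and in 6 pairs (3.125%) at least 1.5-fold lower, against 3.32% and 2.33% of all pairs of a gene and a class. The share was thus close to that of genes in general. Granule neurons held no such pair among 26 genes (2.79% of all genes higher, 2.15% lower), and neither did GABAergic interneurons among 27 genes (2.25% and 2.15%). Granule cell progenitors held 1 lower of 26 (background 3.48% higher and 1.34% lower), unipolar brush cells 1 lower of 22 (3.16% and 3.06%) and Purkinje cells 1 lower of 26 (2.12% and 3.02%). The Lhx9 and Meis2 neurons held 2 higher and 2 lower of 23 (4.3% and 3.79%), and the oligodendrocyte lineage 2 higher of 18 (4.89% and 1.86%). Astroglia held 1 higher and 1 lower of 24 (4.3% and 1.64%). Over the 8 classes the median log2 ratio of these genes ran from -0.03 in Purkinje cells to 0.14 in astroglia, where it was 0.07 over all genes. In 10 of the 11 pairs the counting interval also left out 1, and these are described next. The other pair was Plxnd1 in astroglia, higher in the mutant library.

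**Figure D4:**
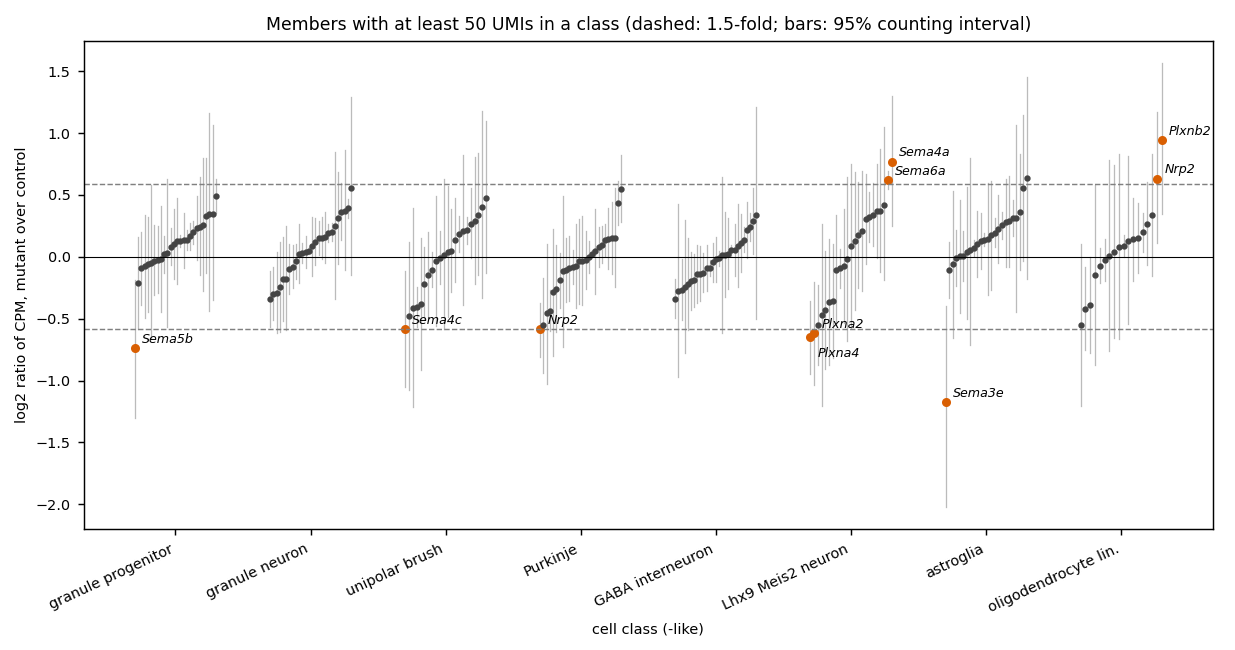
Log2 ratio of mutant to control CPM (y axis) for every gene with at least 50 UMIs in each of 8 classes (x axis, genes ordered by ratio within a class); bars are 95% counting intervals and dashed lines mark 1.5-fold. Orange points are the 10 named pairs, and most of the 192 points lie between the dashed lines.

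The Lhx9 and Meis2 neurons, whose cerebellar identity was not tested, held 4 of the 10 pairs. Sema6a stood at 653 CPM (2290 UMIs) in control and 1003 CPM (3838 UMIs) in mutant cells, that is 1.54 times as high (1.46 to 1.62). Sema4a, at 14.0 and 23.8 CPM, was 1.70 times as high (1.19 to 2.46). Plxna2, at 33.6 and 21.9 CPM, had a mutant to control ratio of 0.653 (0.487 to 0.871), and Plxna4, at 68.1 and 43.4 CPM, one of 0.637 (0.519 to 0.779). Over all cells of this class Sema6a was therefore higher and both of its A-group receptors lower in the mutant library. This did not hold in male cells, whose values are given below. The make-up of the class moved with the library: Tfap2d, a transcription factor of these neurons, stood at 396 and 585 CPM, the 6 Purkinje markers, all detected, summed to 448 and 956 CPM, and 204 female and 91 male control cells faced 290 female and 20 male mutant cells. In female cells the Sema6a ratio was 1.65, from 639 and 1053 CPM, whereas in male cells it was 0.647, from 681 and 440.1 CPM. The Plxna4 ratio was 0.557 in female and 1.18 (0.727 to 1.87) in male cells. That of Plxna2 was 0.587 in female and 2.02 (0.995 to 3.96) in male cells, the latter from 26 and 15 UMIs. With classes taken from clusters in place of marker gates, the ratios of Plxna2 and Sema4a were 0.806 and 1.45, and that of Plxna2 was 0.712 after Scrublet removal. The part of the class make-up in these ratios was not tested.

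Neuropilin 2 differed in opposite directions in 2 classes. In Purkinje cells Nrp2 stood at 23.9 CPM (443 UMIs) in control and 15.9 CPM (288 UMIs) in mutant cells, so that the ratio was 0.666 (0.572 to 0.774). The ratio was 0.680 in female and 0.600 in male cells, and 0.480 after removal of doublets scored by Scrublet. It lay inside the 1.5-fold line with TMM scaling (0.672) and with the stricter barcode filter (0.748). Nrp1 in these cells, at a ratio of 0.683 (0.522 to 0.890), lay just inside the 1.5-fold line. The 7 astroglial markers, all detected in Purkinje cells, summed to 92.2 CPM in control and 44.6 CPM in mutant cells and the 5 fibroblast markers to 14.7 and 1.71 CPM, and their part in the ratio was not tested. In the oligodendrocyte lineage Nrp2, at 21.4 CPM (48 UMIs) and 33.2 CPM (90 UMIs), was 1.55 times as high (1.08 to 2.25). Plxnb2, at 15.2 CPM (34 UMIs) and 29.2 CPM (79 UMIs), was 1.92 times as high (1.27 to 2.96). In this class the 7 markers of granule neurons summed to 62.9 and 123 CPM, the 5 of granule cell progenitors to 20.1 and 45.0 CPM and the 6 of GABAergic interneurons to 41.1 and 87.8 CPM, with none at 0, and their part was not tested. Both ratios lay near the line under other settings, at 1.49 for Plxnb2 without Scrublet doublets and 1.49 for Nrp2 with the stricter barcode filter.

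The last 3 pairs were lower in the mutant library and rested on few UMIs. Sema3e stood at 4.97 CPM (61 UMIs) in control and 2.199 CPM (18 UMIs) in mutant astroglia, giving a ratio of 0.443 (0.246 to 0.759), and was lower in female cells (4.79 and 1.38 CPM) and in male cells (5.10 and 2.02 CPM). Sema5b stood at 4.19 CPM (68 UMIs) and 2.51 CPM (48 UMIs) in granule cell progenitors, giving 0.600 (0.406 to 0.881). That level was 1.76% and 1.07% of its level in the oligodendrocyte lineage. Sema4c stood at 26.6 CPM (80 UMIs) and 17.8 CPM (79 UMIs) in unipolar brush cells, where the 7 astroglial markers summed to 89.9 and 52.6 CPM. The Sema4c ratio was 0.667 (0.482 to 0.921) over all these cells, with 0.980 in female and 0.464 in male cells, and lay inside the 1.5-fold line with both other scalings (0.674 in each).

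Smaller differences ran through several classes for 2 semaphorins, which were singled out after their values had been seen. Sema7a was higher in the mutant library in 6 of the 6 classes in which it was counted. The ratio was 1.41 (1.28 to 1.55) in granule cell progenitors, 1.29 (1.10 to 1.52) in granule neurons, 1.35 (1.19 to 1.53) in Purkinje cells and 1.22 (1.02 to 1.47) in GABAergic interneurons. In unipolar brush cells it was 1.32 (0.792 to 2.26) and in astroglia 1.04 (0.612 to 1.74), where the direction turned with edgeR's TMM scaling. In progenitors the ratio was 1.29 in female and 1.61 in male cells. Intervals above 1 in at least 4 classes and below 1 in none were found for 2 of the 24 genes compared in at least 6 classes (Sema7a and Sema6a), and for 12.8% of 10701 such genes. The receptor Plxnc1 had ratios of 1.15 (1.08 to 1.22) in granule cell progenitors and 1.14 in granule neurons, from 101 and 116 CPM and from 153 and 174 CPM. Its ratio was 1.10 (1.03 to 1.18) in GABAergic interneurons, 0.982 (0.835 to 1.15) in Purkinje cells, 0.995 (0.857 to 1.16) in unipolar brush cells and 0.938 (0.841 to 1.05) in the Lhx9 and Meis2 neurons, so that it was below 1 in 3 of the 8 classes.

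Sema6d differed in direction between classes. In granule neurons it stood at 138 CPM (2241 UMIs) in control and 181 CPM (4151 UMIs) in mutant cells, 1.31 times as high (1.25 to 1.38), with 1.35 in female and 1.30 in male cells. The ratio was also above 1 in granule cell progenitors at 1.12 (1.04 to 1.21), in astroglia at 1.10 (1.06 to 1.14) and in the oligodendrocyte lineage at 1.07, with a lower bound of 1.001. It was below 1 in unipolar brush cells, from 198 to 150.2 CPM, at 0.757 (0.676 to 0.846). In Purkinje cells it was 0.740 (0.659 to 0.831), from 37.6 and 27.8 CPM, in the Lhx9 and Meis2 neurons 0.683 (0.545 to 0.854), and in GABAergic interneurons 0.940 (0.899 to 0.983). Intervals above 1 in at least 2 classes and below 1 in at least 2 others were found for 1 of the 24 genes, Sema6d, and for 2.35% of the 10701 genes. The direction turned in male Lhx9 and Meis2 neurons and in female granule cell progenitors, and, when clusters replaced the gates, in interneurons. The differences between classes were not tested.

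**Figure D5:**
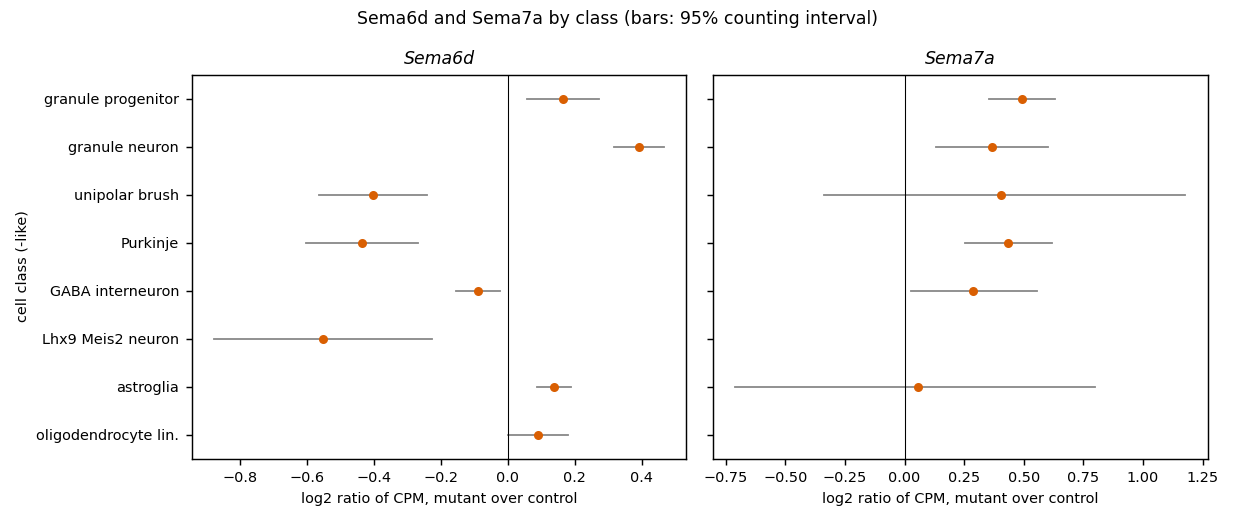
Log2 ratio of mutant to control CPM (x axis) for Sema6d (left) and Sema7a (right) in the classes (y axis) with at least 50 UMIs; bars are 95% counting intervals for 1 library per genotype. Sema6d lies above 0 in 4 and below 0 in 4 classes, and Sema7a lies above 0 in all 6 classes shown.

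Genes that work with these ligands and receptors were read from lists of 63 partner genes: co-receptors, other neuropilin ligands, GTPase effectors, collapsin response mediators and MICAL enzymes, kinases with cofilin, and proteases. In 393 pairs of a partner gene and a class, 10 (2.54%) were at least 1.5-fold higher in the mutant library and 7 (1.78%) at least 1.5-fold lower, below the 3.32% and 2.33% of all pairs. Rnd2, an atypical small GTPase of the group that binds plexins, accounted for 4 of the 10 higher pairs. It stood at 65.4 CPM in control and 105 CPM in mutant granule cell progenitors, 1.60 times as high (1.48 to 1.72). In granule neurons the ratio was 1.69 (1.503 to 1.89), in astroglia 1.51 (1.26 to 1.82), and in unipolar brush cells 1.62 (1.06 to 2.51).

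Among co-receptors, Cntn2, an adhesion molecule of early granule neurons and also a marker used to assign them, was at 9.18 and 15.1 CPM in granule cell progenitors, 1.65 times as high (1.35 to 2.02). Ptprz1, a receptor phosphatase of glia, was lower there at 17.1 and 11.3 CPM (ratio 0.657, 0.547 to 0.788), and its ratio in unipolar brush cells was 0.251 (0.189 to 0.331). The astroglial markers summed to 89.9 and 52.6 CPM in unipolar brush cells and to 227 and 228 CPM in granule cell progenitors. The part of free glial RNA in these Ptprz1 ratios was not tested. Astroglia, its main class with the oligodendrocyte lineage, had a Ptprz1 ratio of 1.10 (1.08 to 1.12). Met, a receptor kinase that associates with B-group plexins, was higher in mutant astroglia at 1.97 (1.37 to 2.87), and Cd72, a Sema4d receptor of immune cells, was lower in interneurons at 0.478 (0.289 to 0.779), from 45 and 29 UMIs. Mical2, an enzyme that oxidises actin, was at 6.43 and 16.4 CPM in astroglia, 2.55 times as high (1.91 to 3.41), and 1.59 times as high (1.14 to 2.25) in granule cell progenitors. Single-sex values moved most for Met, with log2 ratios of 1.82 in female and 0.13 in male astroglia, and for Cntn2, with 0.38 and 1.41 in granule cell progenitors. Vegfb, a ligand of Nrp1, was at 1.52 (1.21 to 1.93) in granule neurons. Of the convertases that cleave semaphorins, Pcsk6 was at 0.536 (0.316 to 0.9001) in granule neurons and Pcsk5 at 0.538 (0.426 to 0.676) in Purkinje cells. None of the 9 kinase and cofilin genes with enough UMIs, of 10 on the list, differed by 1.5-fold in the 8 classes compared. The remaining pairs were Furin in the Lhx9 and Meis2 neurons, higher, and Rnd3, Adam17 and the Ptprz1 named above in unipolar brush cells, lower.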

How the data were processed

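Single-cell RNA sequencing was made from 2 samples, 1 for each genotype. The submitters' processing notes name bcl2fastq 2.20.0.4222, Cell Ranger 7.2 and mm10, and the deposited matrices hold whole-number UMI counts, with no normalisation, per the file headers. The sources used here do not say whether intronic reads counted. The genotype label was used for the mutant, although the labels' protocol words it as Cxcr4+/-.

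A barcode was kept from 500 genes upward if mitochondrial UMIs made up 10% or less, which left 114764187 control and 126145234 mutant UMIs. Each cell was given a score per class, the mean over its markers of log-scaled counts per 10000 relative to the 90th percentile. It was assigned where the highest score reached 0.2, exceeded the next by 0.1 and rested on 2 markers; these thresholds were set after the data were seen. Of the classes assigned, 1 is not reported here. Cells that fitted 2 classes stayed unassigned, and removal of the highest Scrublet scores (641 control and 626 mutant barcodes) was an alternative. UMIs were summed by class and library, with exact Poisson intervals for levels and exact conditional binomial intervals for ratios (Python 3.11.15, scipy 1.17.1). The scripts were tested on simulated counts. Named genes were the highest class of each gene and pairs at least 1.5-fold apart whose interval left out 1. Partner genes were named by the same rule in 5 main classes; those named in other classes were chosen after their values were seen. The genes, lists and rules were chosen with earlier results of these data known. Alternatives were TMM (edgeR 4.0.16) and median-of-ratios scaling, other count minimums, a stricter barcode filter (1000 genes, 5% mitochondrial), Scrublet removal, Leiden clusters built without these genes (scanpy 1.11.5), cells of a single sex and, added after the data were seen, cells with at least 4000 UMIs.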

Additional observations from a re-analysis of the deposited data

Results flagged for a closer look

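In 5 pairs of a gene and a class the mutant to control ratio lay on opposite sides of 1 in female and male cells, each with an interval that left out 1. The same count over all genes is not given here, so whether 5 is many or few cannot be read from it. Cells were called female or male from Xist and Y-linked UMIs, both sexes were present in both libraries, and the differences were not tested. Nrp1 in the Lhx9 and Meis2 neurons had a ratio of 1.38 in female and 0.4202 in male cells, the latter from 100 control and 12 mutant UMIs. Sema6a in the same class had 1.647 and 0.6465, with 20 male mutant cells. Plxnb3, an X-linked gene, had 0.2401 and 1.668 in the oligodendrocyte lineage: 83 and 15 UMIs in female and 29 and 76 UMIs in male cells, of which the single cell with the most gave 16.9% to 34.5%. Sema3a in astroglia had 0.597 and 1.394, from 164 and 63 female and 139 and 149 male UMIs. Plxna4 in GABAergic interneurons had 1.147 and 0.8767, the smallest of these differences and the one with the most UMIs, 1487 to 2448 per sex and library.

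Between classes, Nrp2 was at least 1.5-fold apart in both directions, at 1.55 in the oligodendrocyte lineage and 0.6658 in Purkinje cells, and this difference was not tested either.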

How the results depend on the processing

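No paired analysis was possible because each genotype had a single library. The counts of 5 higher and 6 lower pairs became 13 and 12 with a minimum of 20 UMIs and 21 and 25 with a minimum of 1 UMI. After Scrublet removal 12 pairs were lower, and in female cells alone 8 were higher. The lower minimums also raised the share over all genes, to 5.40% and 4.70% at 20 UMIs. For the minimum of 1 UMI, Scrublet removal and female cells that share is not given here, so those counts cannot be set against genes in general. Genes with the same highest class numbered 22 to 27 under the alternatives. Directions turned, on the log2 scale, for Sema6a (-0.63), Plxna4 (0.24) and Sema6d (0.51) in male Lhx9 and Meis2 neurons. Sema6d turned in female granule cell progenitors (-0.011) and, with clusters, in GABAergic interneurons (0.0016). Sema7a in astroglia turned with TMM (-0.027), median-of-ratios scaling (-0.022), the stricter barcode filter (-0.11) and clusters (-0.19). The cause was not tested. The other 8 named pairs of these genes kept their direction under every alternative in which they reached the count minimum, but not all kept the size. Plxna2 in male Lhx9 and Meis2 neurons fell below that minimum, with 26 and 15 UMIs, and its ratio there was 2.02, the opposite direction. Of the 10 pairs, 7 stayed at least 1.5-fold apart under each of Scrublet removal, the stricter filter and clusters, 8 with TMM, and 9 with median-of-ratios scaling or in cells with at least 4000 UMIs. In single-sex cells 5 of 7 (female) and 3 of 5 (male) did, the latter including Sema6a in the opposite direction. TMM took Nrp2 in Purkinje cells inside the line, and both scalings did so for Sema4c in unipolar brush cells and Plxnd1 in astroglia. Depth limits most the pairs that rest on few UMIs, such as Sema3e in astroglia, whose interval runs from 0.246 to 0.759, and 1 library per genotype leaves the spread between animals unknown.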
